A study of Mus musculus with 8 samples.

Results

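Pericytes and vascular smooth muscle cells, together called mural cells, wrap around the endothelial tube of blood vessels and set its tone and stability. They are recruited by PDGF-B from the endothelium, which acts on the receptor PDGFRβ, and angiopoietin, Notch and TGFβ signals guide their maturation. In skin they lie in the same dermis from which fibroblasts are isolated, and several of the genes used to mark them are also expressed by other cells. Here 7 marker genes were picked by gene symbol, with earlier results of these data known: *Rgs4*, *Rgs5*, *Mcam*, *Cspg4*, *Abcc9*, *Kcnj8* and *Ednra*. Of these 7, 6 had a row among the 15111 genes of the table, and *Kcnj8* was not analysed here.

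The values come from bulk RNA sequencing of primary dermal fibroblasts of adult, tamoxifen-fed mice. The cells were first cultured with serum and then for 72 h in serum replacement medium on fibronectin. Control mice (*Tgfb1*fl/fl) carried both floxed alleles and no Cre recombinase, whereas TGFβ1FKO mice (*Tgfb1*fl/fl:*Col1a2*-CreERT) also carried a tamoxifen-dependent Cre under a *Col1a2* promoter, which is active in fibroblasts and related collagen-producing cells. Each group had 4 libraries, with 16988998 to 23071528 reads per library on the listed genes. The cells were cultured from whole digested back skin without a sort, and neither the labels nor the methods of the study say whether each library came from a separate mouse, so that p-values measure the spread between libraries, which may be technical. The cultures expressed fibroblast genes at high level: *Col1a1* had 599011 to 725180 normalised counts in controls and 626701 to 688658 in TGFβ1FKO fibroblasts. *Tgfb1*, the deleted gene, had 1298 to 1483 normalised counts in controls and 228 to 326 in TGFβ1FKO fibroblasts.

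Of the 6 measured markers, none was called different between TGFβ1FKO and control fibroblasts. To be called, a gene needed an absolute log2 fold change over 0.6 and, in limma's test over all genes, a p-value under 0.05 after Benjamini-Hochberg adjustment. Both were met by 0.086% of all genes (0.0794% lower and 0.00662% higher). *Rgs4* was 1.44 times as high in TGFβ1FKO fibroblasts as in controls and *Cspg4* was at 68.6% of its control level, and these 2 of 6 markers had an unadjusted p-value under 0.05 (limma), which 7.46% of all genes had (3.87% lower and 3.59% higher). In none of the 6 did the groups separate without overlap, as they did in 3.79% of all genes (2.1% lower and 1.69% higher). A log2 fold change at least as far from 0 as that of *Rgs4* was found in 7.01% of all genes. TGFβ1FKO fibroblasts had lower values of 4 markers and higher values of 2, and the median of the 6 log2 fold changes was -0.20 (0.0031 over all genes). In bulk RNA, fewer cells of a type and less RNA per cell cannot be told apart.

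**Figure D1:**
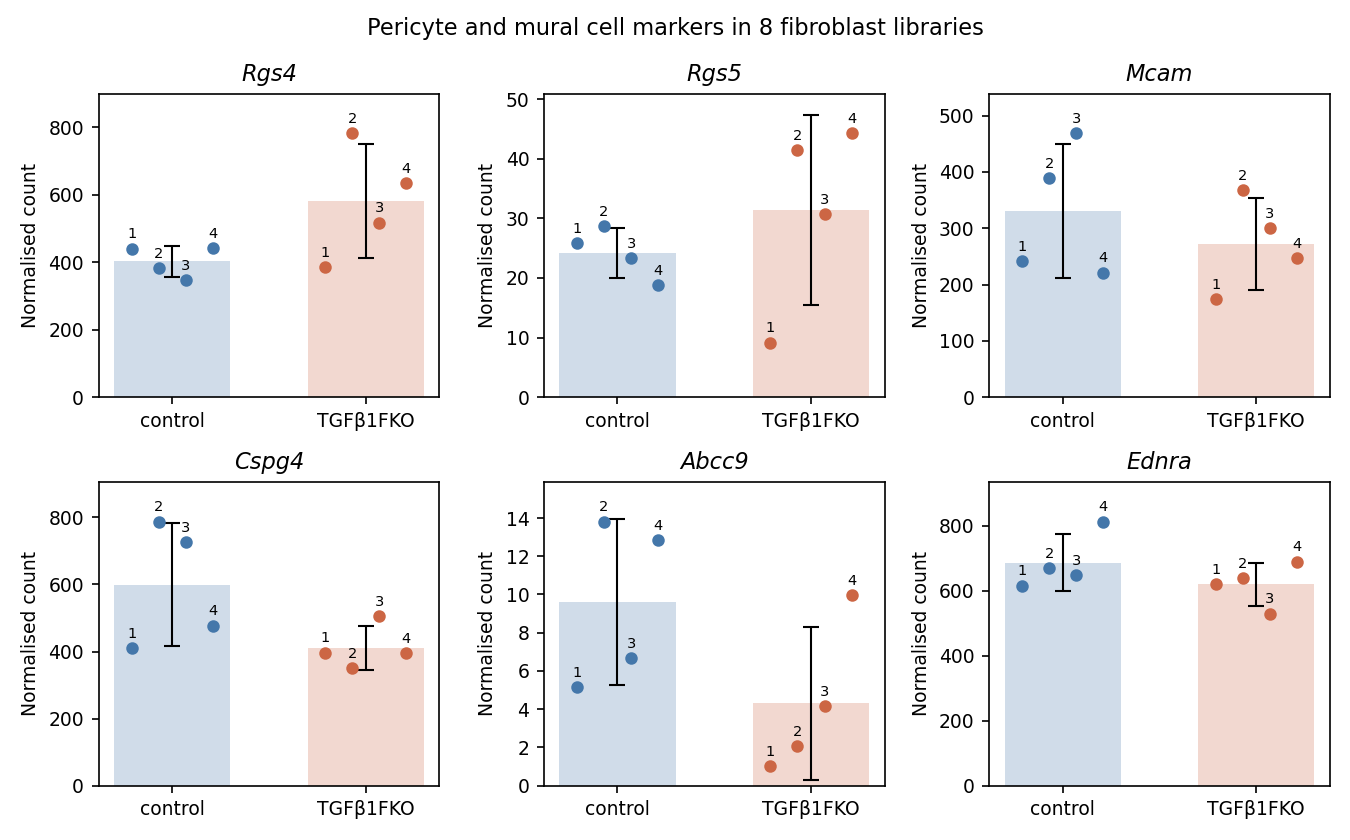
Normalised counts of the 6 measured markers in the 4 control and 4 TGFβ1FKO libraries. Bars give the mean, error bars the SD and numbered points the replicates. The point ranges of the groups overlap for each gene, and TGFβ1FKO replicate 1 has the lowest TGFβ1FKO value of *Rgs4* and of *Rgs5*.

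The markers lie on 4 chromosomes of GRCm38. *Rgs5* (ENSMUSG00000026678, chr1:169655501-169695813, plus strand) and *Rgs4* (ENSMUSG00000038530, chr1:169741477-169747642, minus strand) are neighbours that face each other, with 45663 bases and 0 protein-coding genes between them. *Abcc9* (ENSMUSG00000030249, chr6:142587862-142702315, minus strand) and *Kcnj8* (ENSMUSG00000030247, chr6:142564837-142571614, minus strand) are also neighbours, 16247 bases apart. *Mcam* (ENSMUSG00000032135, chr9:44134469-44142727, plus strand) and *Cspg4* (ENSMUSG00000032911, chr9:56865033-56899870, plus strand) share a chromosome but have 156 protein-coding genes between them. *Ednra* (ENSMUSG00000031616) lies at chr8:77663031-77724464 on the minus strand. Exons of *Mcam*, *Abcc9* and *Ednra* overlap genes on the other strand, and reads of the non-directional libraries cannot be assigned to a strand. The gene opposite *Ednra*, *4933431K23Rik*, had 4.15 to 6.91 normalised counts, and the genes opposite *Mcam* and *Abcc9* were not analysed here.

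The sequences before the start of *Rgs4*, *Rgs5* and *Cspg4* are shown because *Rgs4* and *Rgs5* are neighbours of one gene family, and because *Rgs4* and *Cspg4* had the lowest p-values of the markers. They are from RefSeq on GRCm38.p6, read in the direction of the gene, and end at the base before the first annotated exon. Capitals mark matches on either strand to any of 5 motifs that were searched. These were the Smad box CAGAC, which mediators of TGFβ signals can bind, the TATA box with the letters TATAAA, the GC box with the letters GGGCGG, the motif of the Notch mediator RBPJ with the letters TGGGAA, and the CArG box of serum response factor.
Rgs4, chr1:169747643-169747892, minus strand: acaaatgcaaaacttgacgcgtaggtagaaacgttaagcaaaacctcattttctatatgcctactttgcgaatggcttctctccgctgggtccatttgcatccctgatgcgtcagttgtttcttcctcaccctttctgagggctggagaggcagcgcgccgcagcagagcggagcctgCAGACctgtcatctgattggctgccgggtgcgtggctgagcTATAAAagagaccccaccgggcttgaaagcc
Rgs5, chr1:169655251-169655500, plus strand: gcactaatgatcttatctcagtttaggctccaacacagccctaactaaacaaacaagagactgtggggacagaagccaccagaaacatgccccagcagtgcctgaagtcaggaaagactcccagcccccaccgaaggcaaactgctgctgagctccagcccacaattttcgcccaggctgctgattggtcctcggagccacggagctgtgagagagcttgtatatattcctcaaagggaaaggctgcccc
Cspg4, chr9:56864854-56865032, plus strand: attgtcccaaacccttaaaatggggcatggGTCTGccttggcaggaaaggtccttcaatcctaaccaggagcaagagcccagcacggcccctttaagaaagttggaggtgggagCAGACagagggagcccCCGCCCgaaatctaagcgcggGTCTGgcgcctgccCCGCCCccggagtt

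All 7 markers had a promoter window of 250 bases before to 50 bases after the RefSeq start, and no match overlapped another. CAGAC was found in 6 of the 7 windows and in 49.5% of the 32544 windows of all genes. *Cspg4* held 3 such matches, whereas the 1 match of *Rgs5* lay behind its start, outside the stretch shown. TATAAA was found in *Rgs4* alone among the 7, and in 13.6% of all windows. GGGCGG was found in *Abcc9*, *Mcam* and *Cspg4* (35.9% of all windows) and TGGGAA in *Kcnj8* and *Abcc9* (25.4%). The CArG box was found in 0 of the 7 and in 1.64% of all windows. A match describes letters, not binding.

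The levels of the markers differed more between genes than between the groups. Per kilobase of exon, the median over the 8 libraries was 142 normalised counts for *Rgs4*, 117 for *Ednra*, 81.7 for *Mcam*, 37.2 for *Cspg4*, 5.99 for *Rgs5* and 0.706 for *Abcc9*. The library ranges of *Rgs4* and *Ednra* overlapped, as did those of *Ednra* and *Mcam* and those of *Mcam* and *Cspg4*, although *Mcam* was above *Cspg4* in 8 of 8 libraries. *Cspg4*, *Rgs5* and *Abcc9* were separated from each other in all libraries. Among all genes, *Rgs4* lay at the 66.5th percentile of the per-kilobase level, *Rgs5* at the 12.6th and *Abcc9* at the 0.609th. *Pdgfrb*, the receptor for PDGF-B on mural cells and on fibroblasts, was at 3538 normalised counts per kilobase, which is a median of 580 times the level of *Rgs5* and 97.0 times that of *Cspg4*. *Rgs5* and the channel subunit gene *Abcc9* were thus the least abundant of the 6 per length.

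**Figure D2:**
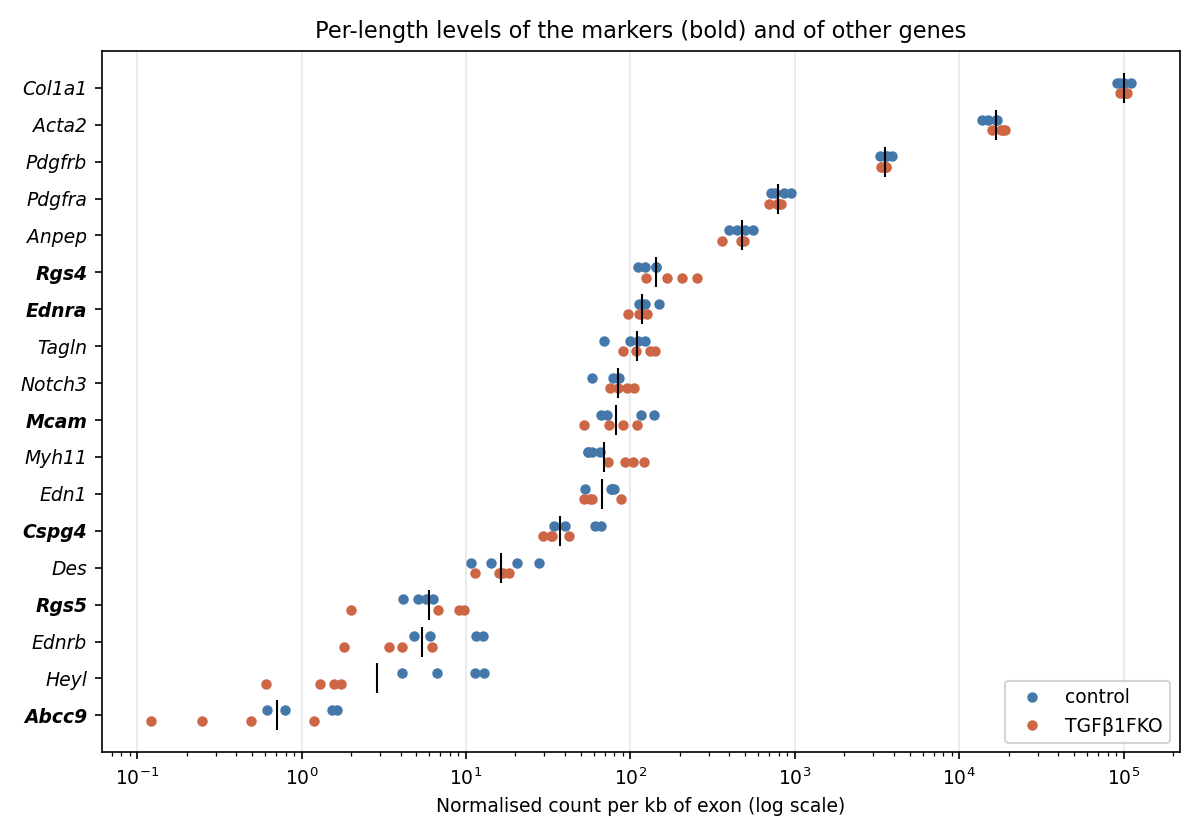
Normalised counts per kilobase of exon, on a log scale, for the 6 measured markers (bold) and 12 other genes; points are libraries, coloured by group, and the black tick is the median of the 8 libraries. *Rgs4*, *Ednra*, *Mcam* and *Cspg4* lie between 29.4 and 253, *Rgs5* between 2.01 and 9.75 and *Abcc9* between 0.121 and 1.65.

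*Rgs4* and *Rgs5* encode regulators of G-protein signalling, which speed the switching-off of G proteins coupled to receptors such as those for endothelin and angiotensin. *Rgs4* had 440, 382, 346 and 441 normalised counts in control replicates 1 to 4, and 386, 783, 517 and 635 in TGFβ1FKO replicates 1 to 4. TGFβ1FKO replicates 2, 3 and 4 lay above every control library, whereas replicate 1 lay within the control range. The mean was 402.6 ± 46.7 (SD, n = 4) in controls against 580.3 ± 169 (SD, n = 4) in TGFβ1FKO fibroblasts. *Rgs4* had a log2 fold change of 0.49 ± 0.17 (standard error) and a 95% interval of 0.11 to 0.86 (unadjusted p = 0.0146, adjusted p = 0.582, limma; two-sided exact permutation test, p = 0.0857). Without TGFβ1FKO replicate 1 the log2 fold change was 0.67, still with an adjusted p of 0.123 in limma's test. Without TGFβ1FKO replicate 2 it was 0.33 (adjusted p = 0.850, limma). These were the ends of its range when single libraries were left out.

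*Rgs5*, the most widely used transcript marker of pericytes, had 25.8, 28.7, 23.3 and 18.8 normalised counts in control replicates 1 to 4. In TGFβ1FKO replicates 1 to 4 it had 9.12, 41.4, 30.7 and 44.3. The TGFβ1FKO libraries thus lay on both sides of the control range, with replicate 1 below it and the other 3 above it. Its mean was 24.1 ± 4.21 (SD, n = 4) in controls against 31.4 ± 16.0 (SD, n = 4) in TGFβ1FKO fibroblasts, and the log2 fold change was 0.17 (95% interval -0.71 to 1.06; adjusted p = 0.948, limma; exact permutation test, p = 0.80). These values rest on 9 to 40 reads per library. The log2 fold change was 0.66 without TGFβ1FKO replicate 1 and turned to -0.026 without replicate 2 and to -0.058 without replicate 4.

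Over the 8 libraries, *Rgs4* and *Rgs5* had a Pearson correlation of log2 values of 0.681 (exact permutation test, p = 0.063) and a Spearman correlation of 0.667 (exact permutation test, p = 0.0831). Of 15 pairs of markers tested, this one was not below the threshold after adjustment (Benjamini-Hochberg adjusted permutation p = 0.416), and r fell to 0.332 without the 2 libraries farthest from the median of *Rgs4*. After subtraction of each group's mean, r was 0.786. The same step brought r to -0.466 for *Rgs4* and *Cspg4* and to 0.412 for *Abcc9* and *Ednra*, pairs described below. Spearman p-values were not adjusted over the 15 pairs, and *Abcc9* had only 1 to 13 reads per library. *Rgs4* was 19.6 to 62.1 times as high as *Rgs5* per kilobase, so the neighbours were not expressed at one level. For Pearson's r, the lowest permutation p among the 15 pairs was that of *Rgs4* and *Cspg4* (r = -0.683, p = 0.061; Spearman correlation -0.738, p = 0.0458; exact permutation tests, adjusted p = 0.416 for Pearson's r), and r was -0.491 without the 2 libraries farthest from the median of *Rgs4*. *Abcc9* and *Ednra* had the same size of Spearman correlation with opposite sign (0.738, p = 0.0458; r = 0.568, p = 0.141; exact permutation tests, adjusted p = 0.416 for r), and r was 0.839 without the 2 libraries farthest from the median of *Abcc9*.

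Of 19 other RGS genes on a list, 9 were in the table and none was called, with 6 lower and 3 higher. *Rgs12*, *Rgs19* and *Rgs10* were the most abundant by count and had log2 fold changes of 0.12, -0.033 and -0.021. *Rgs8*, of the same small-protein subfamily as *Rgs4* and *Rgs5*, had 9.46, 108, 101 and 29.6 normalised counts in control replicates 1 to 4 and 4.43 to 20.8 in TGFβ1FKO fibroblasts (log2 fold change -1.98, unadjusted p = 0.0126, adjusted p = 0.555, limma). Its control replicates 2 and 3 stood above the other libraries, while control replicate 1 lay within the TGFβ1FKO range. *Rgs2* (log2 fold change -0.42, adjusted p = 0.734, limma) and *Rgs20* (0.47, adjusted p = 0.878, limma) had the next largest differences in either direction. Both depended on single libraries, since *Rgs2* came to -0.24 without TGFβ1FKO replicate 2 and *Rgs20*, at 1.06 to 8.11 normalised counts, to 0.079 without control replicate 2.

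*Cspg4* encodes NG2, a large transmembrane proteoglycan on pericytes, on precursors of oligodendrocytes and on melanoma cells. It had 409, 787, 725 and 477 normalised counts in control replicates 1 to 4, and 396, 351, 505 and 394 in TGFβ1FKO replicates 1 to 4. Control replicates 2 and 3 were higher than all other libraries, and control replicates 1 and 4 lay within the range of the TGFβ1FKO libraries. The mean was 599.8 ± 185 (SD, n = 4) in controls against 411.7 ± 65.5 (SD, n = 4) in TGFβ1FKO fibroblasts, and *Cspg4* had a log2 fold change of -0.50 ± 0.19 (standard error) and a 95% interval of -0.90 to -0.10 (unadjusted p = 0.0183, adjusted p = 0.599, limma; exact permutation test, p = 0.143). The log2 fold change came to -0.35 without control replicate 2 and to -0.67 without control replicate 1, the ends of its range when single libraries were left out.

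*Mcam* encodes CD146, an adhesion molecule of the immunoglobulin family on pericytes, smooth muscle and endothelial cells. It had 242, 389, 469 and 221 normalised counts in control replicates 1 to 4, and 174, 368, 301 and 247 in TGFβ1FKO replicates 1 to 4. As with *Cspg4*, control replicates 2 and 3 had the highest values, but TGFβ1FKO replicate 2 came close to them. The mean was 330.2 ± 119 (SD, n = 4) in controls against 272.4 ± 81.9 (SD, n = 4) in TGFβ1FKO fibroblasts, and the log2 fold change was -0.26 (95% interval -0.80 to 0.29; adjusted p = 0.841, limma; exact permutation test, p = 0.486). Across the 8 libraries *Mcam* and *Cspg4* had r = 0.629 (p = 0.102) and a Spearman correlation of 0.452 (p = 0.267, exact permutation tests; adjusted p = 0.416 for r over the 15 pairs). Without the 2 libraries farthest from the median of *Mcam*, r was 0.400.

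*Pecam1* and *Sox10*, genes of other cell types, were also highest in control replicates 2 and 3. *Pecam1*, an endothelial adhesion molecule, had 43.9, 61.6, 71.0 and 26.7 normalised counts in control replicates 1 to 4 and 17.2, 44.5, 16.6 and 23.3 in TGFβ1FKO replicates 1 to 4. *Sox10*, the glial and melanocytic lineage factor, had 132, 148, 207 and 72.1 in control replicates 1 to 4 and 7.25 to 21.1 in TGFβ1FKO fibroblasts. Of 15 endothelial markers, 14 were in the table, 13 lower and 1 higher, with none called and *Pecam1* and *Cldn5* at an unadjusted p-value under 0.05 (limma). Their summed level was 5243 to 5641 normalised counts in controls and 4757 to 5788 in TGFβ1FKO fibroblasts, most of it from *Eng*, which fibroblasts also express, and *Sox17* was not analysed here. Of 14 Schwann cell markers, 13 were in the table, 11 lower and 2 higher. All 11 that were lower had an unadjusted p-value under 0.05 (limma), 8 of them did not overlap between the groups and 3 were called, *Sox10* and *Foxd3* among them, and the median of the 13 log2 fold changes was -2.04. Their summed level was 11970 to 12440 normalised counts in controls and 10422 to 12433 in TGFβ1FKO fibroblasts, most of it from *Pmp22* and *Ncam1*. The part of these cell types in the values of *Cspg4* and *Mcam* was not tested.

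**Figure D3:**
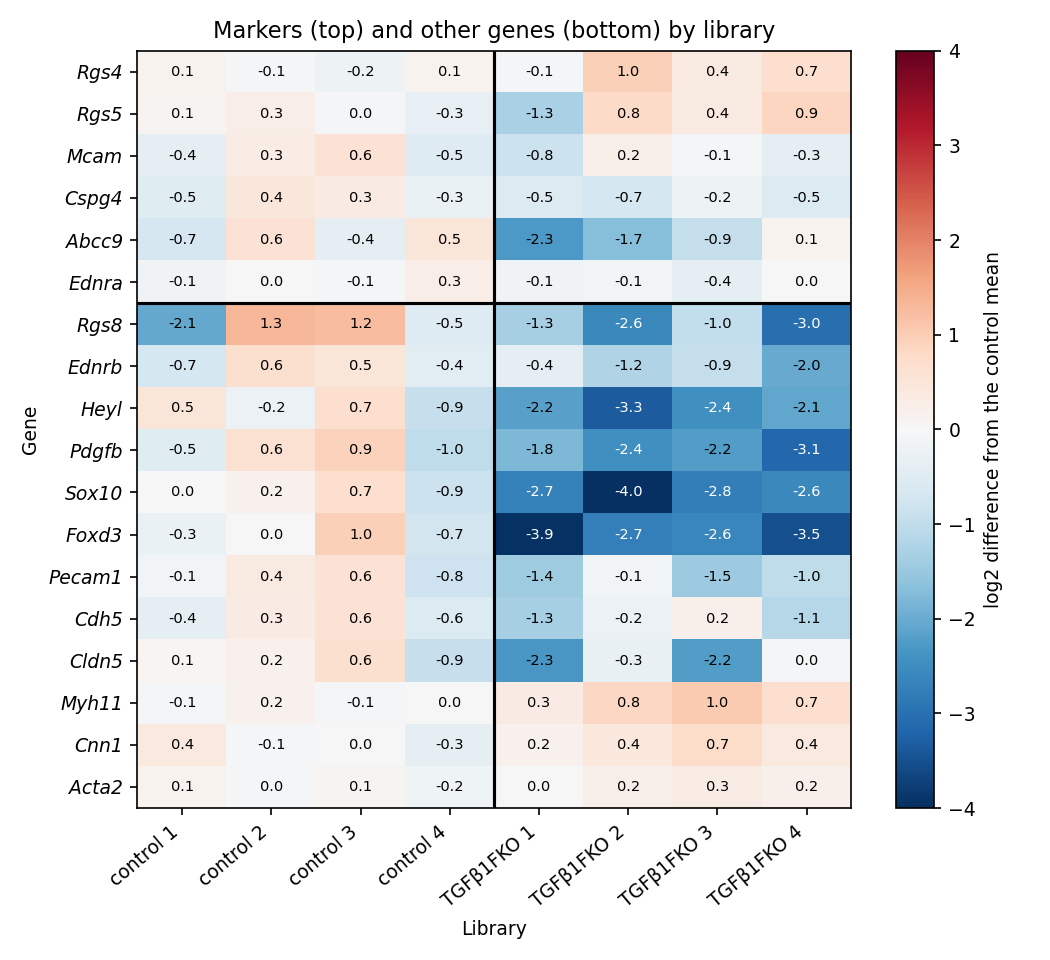
Difference of log2(normalised count + 1) from the control mean in each library (columns) for the 6 measured markers (upper rows) and 12 other genes (lower rows), with blue for lower and red for higher values. *Mcam* and *Cspg4* are positive in control replicates 2 and 3, as are *Rgs8*, *Ednrb*, *Pdgfb*, *Pecam1* and *Cdh5*, and *Rgs5* is at -1.30 in TGFβ1FKO replicate 1.

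Of 13 known binding partners of NG2 and CD146, none was called or had an unadjusted p-value under 0.05 (limma). *Col6a1*, a chain of the NG2 ligand collagen VI, had 42319 to 56417 normalised counts in controls and 45429 to 56951 in TGFβ1FKO fibroblasts. *Col6a3* and *Col5a1*, the most abundant by count, had log2 fold changes of 0.16 and 0.093 (adjusted p = 0.798 for both, limma).

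*Abcc9* encodes the sulphonylurea receptor SUR2, which joins with Kir6.1, the product of *Kcnj8*, to form the ATP-sensitive potassium channel of mural cells. It had 6, 13, 6 and 13 reads in control replicates 1 to 4 and 1, 2, 5 and 9 reads in TGFβ1FKO replicates 1 to 4, or 38 against 17 reads in all. TGFβ1FKO replicates 1 and 2 lay at or under the limit of 3 reads that a count of 0 allows, and replicate 4 lay within the control range. In normalised counts the mean was 9.62 ± 4.34 (SD, n = 4) in controls against 4.302 ± 4.00 (SD, n = 4) in TGFβ1FKO fibroblasts. The log2 fold change of -1.20 had a 95% interval of -2.40 to 0.0032 (unadjusted p = 0.0505, adjusted p = 0.669, limma; exact permutation test, p = 0.114), and it was -0.69 with a pseudocount of 5. The test did not call *Abcc9*, and its interval spans a wide range of differences. Of 6 related channel genes, *Kcnj2* and *Kcnj15* were in the table, at log2 fold changes of -0.54 and -0.028 (adjusted p = 0.756 and 0.974, limma), and *Kcnj2* came to -0.24 without TGFβ1FKO replicate 1.

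*Ednra* encodes the endothelin receptor type A, through which endothelin-1 contracts smooth muscle. It had 616, 669, 648 and 813 normalised counts in control replicates 1 to 4, and 620, 639, 529 and 689 in TGFβ1FKO replicates 1 to 4. The libraries of both groups were intermixed, with control replicate 4 the highest and TGFβ1FKO replicate 3 the lowest. The mean was 686.4 ± 87.1 (SD, n = 4) in controls against 619.3 ± 66.9 (SD, n = 4) in TGFβ1FKO fibroblasts. *Ednra* had the narrowest 95% interval of the 6 markers, from -0.36 to 0.067 (log2 fold change -0.15, adjusted p = 0.76, limma; exact permutation test, p = 0.343), and it lies within the threshold of 0.6 in either direction.

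Of 13 other genes of the endothelin system, 10 were in the table and none was called. *Ednrb*, the type B receptor, had 20.6, 54.2, 48.8 and 25.7 normalised counts in control replicates 1 to 4 and 26.4, 14.5, 17.4 and 7.76 in TGFβ1FKO replicates 1 to 4 (log2 fold change -1.13, unadjusted p = 0.0124, adjusted p = 0.555, limma). Its highest values were again those of control replicates 2 and 3. Per kilobase, *Ednra* was 9.62 to 69.2 times as high as *Ednrb* in the 8 libraries. *Edn1*, the ligand, had 114 to 171 normalised counts in controls and 111 to 188 in TGFβ1FKO fibroblasts, with control replicate 4 apart from the other 3 controls (163 to 171). *Ece1*, which cleaves the precursor to the active peptide, had 5797 to 6432 normalised counts in controls and 6113 to 7771 in TGFβ1FKO fibroblasts (log2 fold change 0.17, unadjusted p = 0.0276, adjusted p = 0.641, limma). *Itpr1*, a calcium release channel, had a log2 fold change of 0.21 (0.13 without control replicate 3), and the abundant *Gna11* and *Plcb3* of 0.077 and -0.035.

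Of 29 symbols on a list of other mural cell genes, of which 2 are older names of 2 others, 19 were in the table, 13 lower and 6 higher, and their median log2 fold change was -0.079. *Heyl*, a Notch target and transcriptional repressor, was the 1 gene of the list that was called. It had 57.6, 34.0, 65.4 and 20.7 normalised counts in control replicates 1 to 4, and 8.11, 3.11, 6.64 and 8.86 in TGFβ1FKO replicates 1 to 4. Every TGFβ1FKO library lay below every control library (log2 fold change -2.51, adjusted p = 0.0422, limma). The direction held with each library left out, but the call was lost in 7 of the 8 cases (adjusted p = 0.0567 to 0.24, limma) and kept without control replicate 4 (adjusted p = 0.00682, limma). In 2 genes of the list, *Heyl* among them, all TGFβ1FKO libraries lay below all controls, as in 2.1% of all genes. *Pdgfrb* had a mean of 19673 ± 1345 normalised counts (SD, n = 4) in controls against 19081 ± 667 (SD, n = 4), a difference smaller than the SD of the controls. *Notch3*, the Notch receptor of mural cells, had means of 617.5 ± 99.6 (SD, n = 4) in controls and 726.8 ± 109 (SD, n = 4) in TGFβ1FKO fibroblasts (log2 fold change 0.24, adjusted p = 0.703, limma). *Aspn* and *Anpep*, abundant in these cultures, had log2 fold changes of -0.064 and -0.079, and *P2ry14* and *Lamc3* had larger ones of -0.71 and 0.45 that did not pass (adjusted p = 0.703 and 0.734, limma). Left-out libraries moved these values, *Notch3* to 0.12 without control replicate 1, *P2ry14* to -0.40 without control replicate 2, and *Lamc3* to 0.24 without TGFβ1FKO replicate 2 and 0.77 without TGFβ1FKO replicate 1. *Higd1b*, *Cox4i2*, *Vtn* and *Colec11*, further transcripts of pericytes, were not analysed here.

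**Figure D4:**
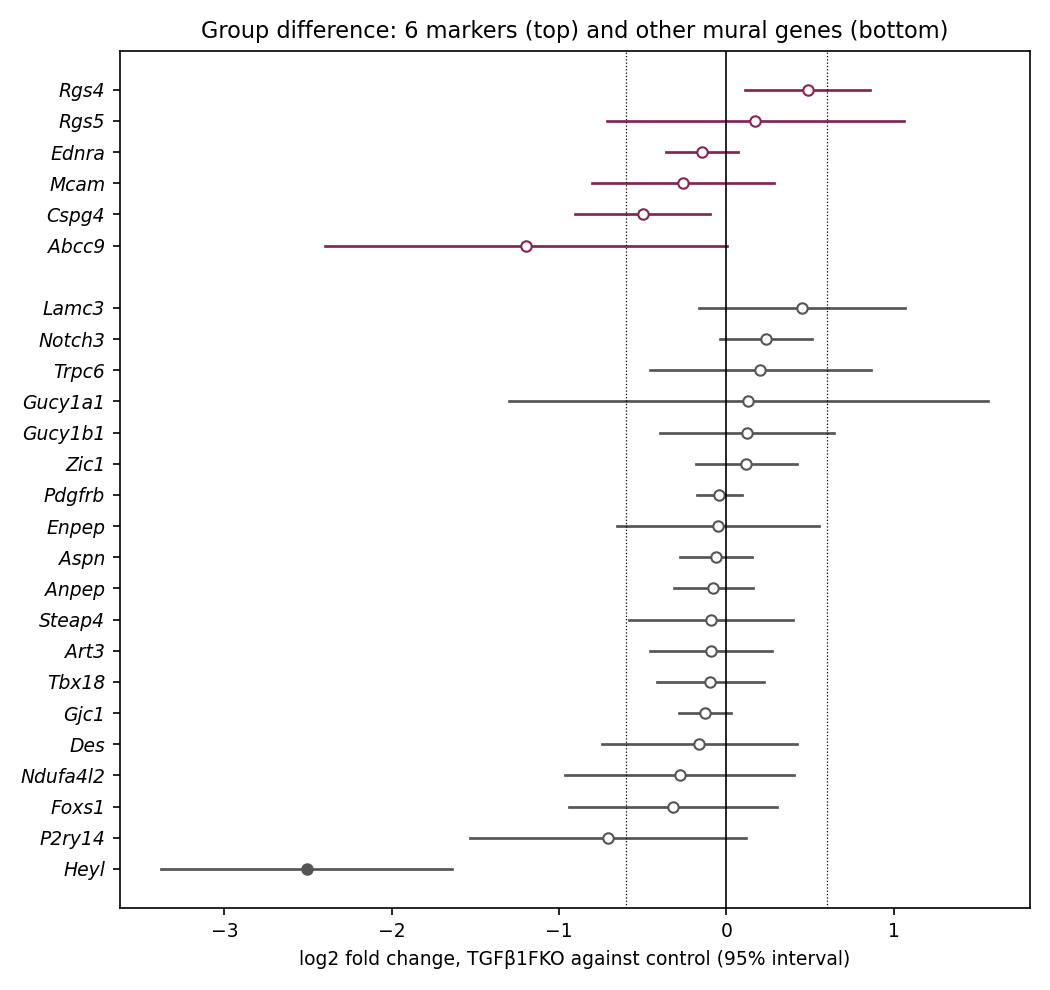
Log2 fold change of TGFβ1FKO against control fibroblasts with its 95% interval for the 6 measured markers (upper rows) and the 19 other mural genes (lower rows); the filled point is the called gene and dotted lines mark 0.6 in either direction. The intervals of *Rgs4* and *Cspg4* leave out 0 on opposite sides before adjustment, and *Heyl* stands apart at -2.51.

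Of 16 contractile genes of smooth muscle, 12 were in the table and 0 were called. TGFβ1FKO fibroblasts had higher values of 11 of them and lower values of 1, and the median of the 12 log2 fold changes was 0.185. *Myh11*, the smooth muscle myosin heavy chain, had 419 to 498 normalised counts in control and 556 to 916 in TGFβ1FKO libraries, without overlap (log2 fold change 0.71, unadjusted p = 8.47e-05, adjusted p = 0.0649, limma). It was called without TGFβ1FKO replicate 1 (0.84, adjusted p = 0.0106, limma). The same held with the replicate number as a block, which the labels do not give (adjusted p = 0.0248, limma). Over the alternatives its log2 fold change ranged from 0.60 to 0.84 and its adjusted p from 0.0106 to 0.278 (limma). *Synpo2*, *Cnn1*, *Lmod1* and *Acta2* had log2 fold changes of 0.34, 0.42, 0.21 and 0.19, each with an unadjusted p-value under 0.05 and an adjusted one between 0.53 and 0.654 (limma). In *Myh11* and *Synpo2* the groups did not overlap, as was the case in the higher direction for 1.69% of all genes.

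Among the signals that recruit mural cells, none of 18 genes was called. *Pdgfb*, the ligand of PDGFRβ, had 18.9, 41.4, 52.1 and 12.8 normalised counts in control replicates 1 to 4 and 2.22 to 7.10 in TGFβ1FKO fibroblasts (log2 fold change -2.40, adjusted p = 0.103, limma). It was called without control replicate 4 (-2.74, adjusted p = 0.0294, limma) and with the replicate number as a block (adjusted p = 0.0414, limma). Over the alternatives its log2 fold change ranged from -2.74 to -1.79 and its adjusted p from 0.0294 to 0.393 (limma). *Angpt1*, the angiopoietin made by mural cells and fibroblasts, had means of 131.8 ± 15.4 (SD, n = 4) in controls and 102.3 ± 14.7 (SD, n = 4) in TGFβ1FKO fibroblasts, with a log2 fold change of -0.37 (unadjusted p = 0.0244, adjusted p = 0.632, limma). *Tgfbr2* and *Egfr*, abundant receptors of the list, had log2 fold changes of 0.0011 and 0.034.

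The genes whose log2 values over the 8 libraries were most like each marker were searched among those whose normalised count averaged at least 50, by Pearson's r and with no test. They were *Erich1* (r = 0.984) and *Flrt3* (r = 0.98) for *Rgs4*, and *Brpf1* (r = 0.942) for *Rgs5*. For *Cspg4* they were *Spopl* (r = 0.971) and *Fxyd6* (r = 0.959), and for *Mcam* they were *Med27* (r = 0.961) and *Dbt* (r = 0.941). For *Ednra* they were *Sema3b* (r = 0.989) and *A730017L22Rik* (r = 0.962), and for *Abcc9* they were *Zfp760* (r = 0.952) and *Ppt2* (r = 0.948). *Rgs5* and *Abcc9* averaged below 50 and could not be found in this search. Each marker was set against 11560 or 11561 genes, and the highest of so many r over 8 libraries can be large by chance.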

How the data were processed

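Poly(A) RNA of 8 cultures was sequenced as paired-end, non-directional libraries. Per the labels and the methods of the study, reads were aligned with HISAT2 2.0.5 to GRCm38, counted with featureCounts 1.5.0-p3 and normalised with DESeq2 1.42.0 after genes with low summed counts had been left out. The deposited signal is the normalised count with 0.5 added by the authors. The 0.5 was subtracted, and all values (100%) were then multiples (within 0.05 reads) of what 1 read was worth in that library, which gave the reads quoted. Columns of the authors' own comparison (fold change, its error, a statistic and p-values) were not used.

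The groups were compared on log2(normalised count + 1) over all 15111 genes with limma 3.58.1 (R 4.3.3), its prior variance following the mean, after a test on simulated data. The pseudocount understates changes of low genes. Exact permutation tests of 4 against 4 libraries were two-sided and allow no p below 0.0286. No 2 libraries of a group agreed within sampling noise (lowest chi-square per degree of freedom 5.14). Floors cover counting error only. Levels per kilobase use the union of exons in GENCODE M21, which held 15105 of the genes.

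The markers and lists were chosen with earlier results of these data known. Named were all markers and, from each list, called genes, genes with an unadjusted p under 0.05 and the most abundant ones, with the largest differences for the lists closest to the markers. Lists of other cell types and the contractile list are named only in part. Some genes that this rule would name are not reported here. Alternatives were scaling by the trimmed mean of M values (TMM), pseudocounts of 0.5 and 5, at least 10 reads in each library, other thresholds, a block by replicate number and the omission of single libraries.

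Other lists gave 0 called genes, namely melanocyte markers (3 of 7 in the table), macrophage markers (4 of 8), adipocyte markers (2 of 6), skeletal muscle markers (2 of 8), fibroblast markers (11 of 11) and keratinocyte markers (4 of 9, with *Dsp* and *Perp* higher at an unadjusted p under 0.05).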

Additional observations from a re-analysis of the deposited data

Results flagged for a closer look

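Of 88 groups of 4 libraries examined for a value far from the others, 1 had such a value, where chance gives about 1 in 20. *Edn1* in control replicate 4 was at 114 normalised counts, against 163 to 171 in the other control libraries.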

How the results depend on the processing

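None of the 6 markers was called under any of the 15 alternatives, and *Rgs5* and *Abcc9* could not be tested under the minimum of 10 reads. With 1 library left out, the log2 fold change of *Rgs5* ranged from -0.058 to 0.66 and turned sign without TGFβ1FKO replicate 2 or 4. The other 5 markers kept their direction over all alternatives, between 0.33 and 0.67 for *Rgs4*, -0.43 and -0.06 for *Mcam*, -0.67 and -0.35 for *Cspg4*, -1.65 and -0.69 for *Abcc9* and -0.20 and -0.06 for *Ednra*. TMM scaling moved each group mean of the 6 markers by less than its SD. Differences near 0 also turned sign with 1 library left out, ranging from -0.16 to 0.0090 for *Aspn*, -0.16 to 0.021 for *Anpep*, -0.084 to 0.019 for *Rgs19*, -0.081 to 0.015 for *Rgs10*, -0.12 to 0.088 for *Kcnj15*, -0.069 to 0.072 for *Tgfbr2* (-0.0042 with TMM scaling) and -0.042 to 0.089 for *Egfr*; the cause was not tested. Over all genes, 13 were called, against 3 with the minimum of 10 reads (12946 genes tested) and 25 at an adjusted p under 0.1. With 1 library left out it was 5 to 32, the highest without control replicate 4. With the replicate number as a block 31 genes and no marker were called. The labels do not tie same-numbered libraries to each other. Their deviations had correlations of -0.134 to 0.159, within the -0.319 to 0.387 of libraries with unlike numbers. Such correlations cannot decide whether same-numbered libraries were paired. Count models in edgeR (also with TMM) and DESeq2 were planned and not run, because the values as deposited, with 0.5 added, did not pass as whole reads in 2 of the 8 libraries. With the 0.5 subtracted, all values were multiples of 1 read, so the values themselves did not prevent such models. The fewest reads lay behind *Abcc9* (1 to 13 per library) and *Rgs5* (9 to 40).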
